A study of Drosophila melanogaster with 2 samples.

Results

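The 10 genes described here are Polycomb and trithorax group genes, picked by symbol in the Ensembl annotation, with earlier results of these data known: Pc, ph-p, ph-d, Psc, Su(z)2, E(z), esc, Sfmbt, pho and trx. They are 10 of 13968 protein-coding genes. The measurement was chromatin immunoprecipitation followed by sequencing (ChIP-seq) of B-H2, a Bar-class homeodomain protein, in whole fly embryos. The embryos came from a transgenic Drosophila melanogaster line that stably makes B-H2 fused at its C terminus to green fluorescent protein, were of both sexes pooled, and were 6 to 22 hours old. There was 1 group, B-H2-GFP embryo, with 2 biological replicates that the labels number 1 and 3, and no second genotype, treatment or stage. The source label adds an insertion that targets B-H2, and the labels do not say what drives the fusion or what state the resident B-H2 gene was in. The antibody label reads B-H2, while the free-text description speaks of an input control for each library, and the peak lists do not settle that conflict. The lists hold no expression values, so the tissue label could not be checked against marker genes.

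Polycomb and trithorax group proteins keep developmental genes, the Hox genes above all, in a repressed or an active state through many cell divisions. Polycomb repressive complex 1 (PRC1) compacts chromatin and ubiquitylates histone H2A, and Polycomb repressive complex 2 (PRC2) methylates lysine 27 of histone H3. In flies both are brought to DNA elements called Polycomb response elements, where the Pho repressive complex (PhoRC) binds. Trithorax proteins counteract them, and several Polycomb group genes, ph among them, are themselves Polycomb targets.

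Each replicate had a list of 30000 permissive peaks, another 30000 came from the pooled alignments, and 4277 pooled peaks made up the authors' reproducible set, thresholded by the irreproducible discovery rate (IDR). These IDR peaks were the strongest of the pool, with signal from 112 to 3978. Signal is the authors' own value per peak, comparable within a list only, so ranks by signal (1 is strongest) are given for the replicates. Read depth is unknown. A gene was counted as having a peak when a summit lay in its body or within 5 kb of any of its transcription start sites (TSSs).

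Of the 10 genes, 7 had at least 1 IDR summit (70.0%, exact 95% interval 34.8 to 93.3), against 44.7% of all protein-coding genes. Pc, ph-p, ph-d, Psc, Su(z)2, E(z) and trx had one, and esc, pho and Sfmbt had none. The interval contains the genome-wide share, and the genes were not picked blind to these data. Longer windows hold more peaks, and the windows of these genes had a median length of 15.3 kb, against 10 kb over all genes. Among genes with windows of 12 to 30 kb, 6 of 8 Polycomb and trithorax genes had an IDR summit, against 53.5% of all genes in that range. Within 1 kb of a TSS, 5 of the 10 had an IDR summit (50%, interval 18.7 to 81.3), against 26.9% of all protein-coding genes. With any pooled peak counted, 9 of 10 had a summit, against 77.0% of genes, and the exception was Sfmbt. Intervals here and below cover only the counting of genes or summits. In bulk embryos, binding in fewer cells and weaker binding per cell cannot be told apart.

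The 7 genes held 18 IDR summits and the 9 genes 64 pooled summits. PRC1 genes accounted for 13 of the 18, trx for 4 and E(z) for 1. No IDR summit was shared by a pair of the 10 genes. Signal ran from 115 to 1156 with a median of 197, against 168 over all IDR peaks. Of the 18, 8 lay within 1 kb of the gene's own TSS and 12 within 1 kb of any protein-coding TSS (66.7%, interval 41.0 to 86.7), against 72.4% of all IDR summits. Another protein-coding gene had the nearest TSS for 5 of the 18, and with non-coding genes included the number was 6. By position in the gene itself, 5 were intronic, 3 lay in a 5′ UTR and 10 lay outside its body.

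**Figure D1:**
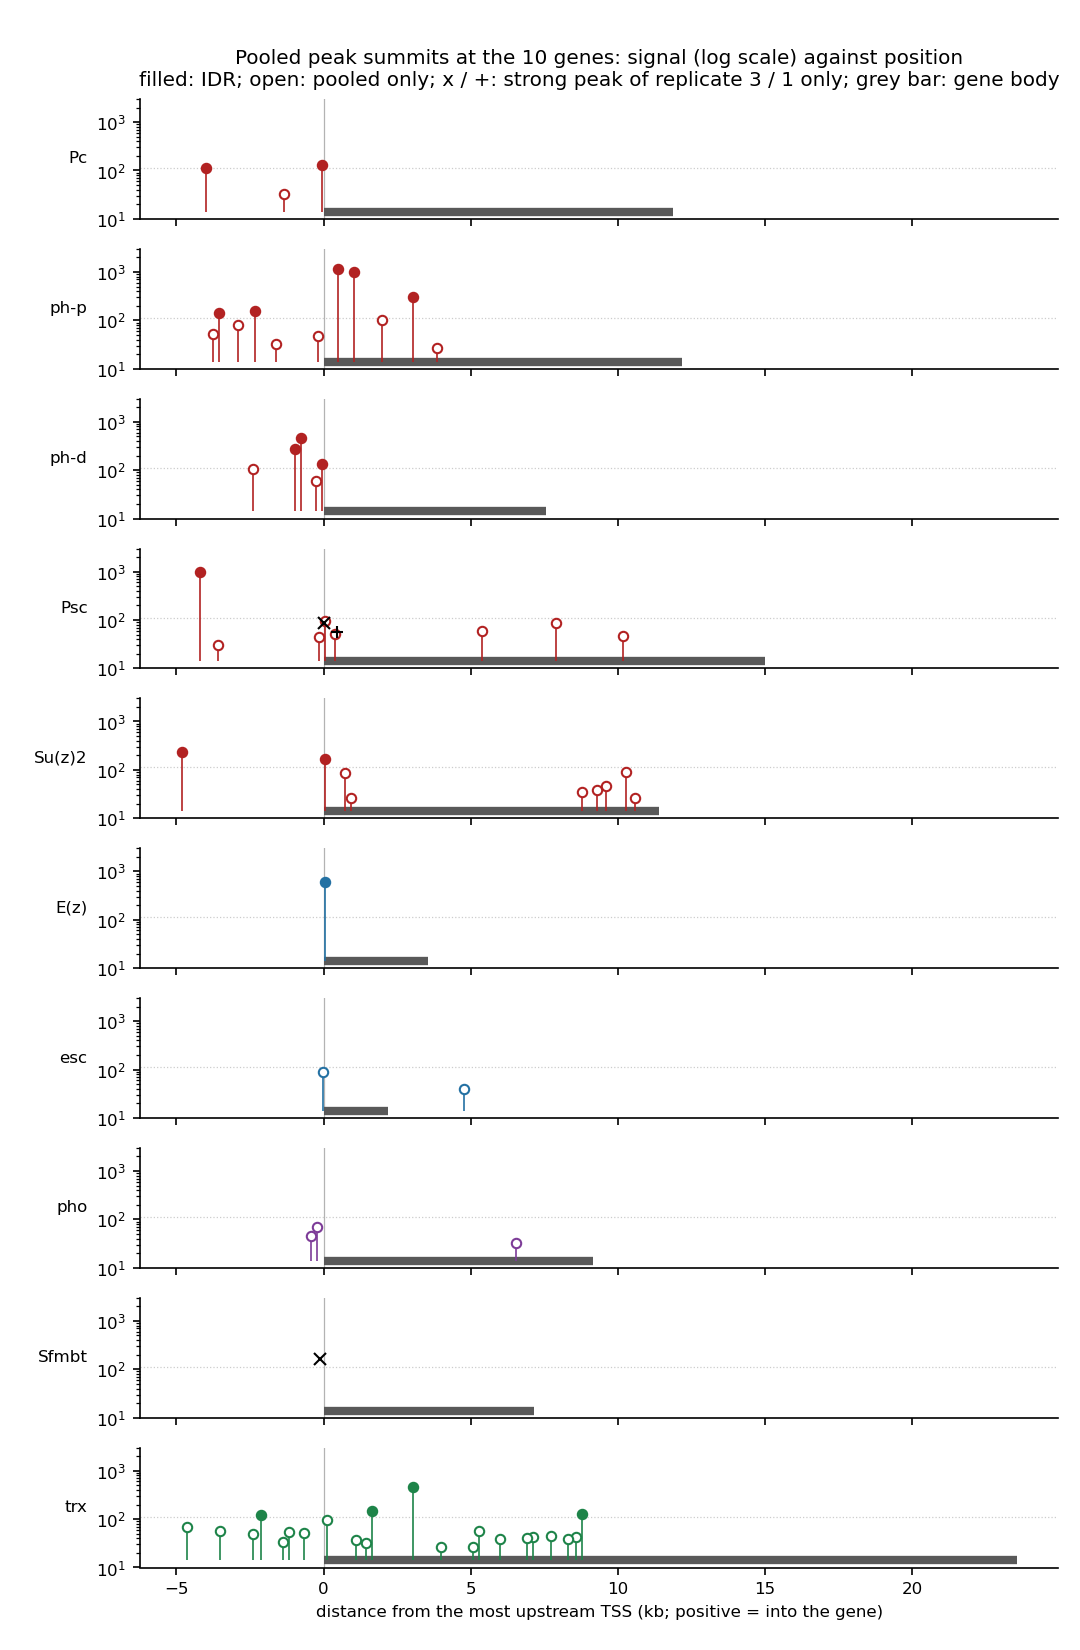
Pooled peak summits in the windows of the 10 genes, with signal on a log scale against distance in kb from the most upstream TSS, positive into the gene; filled circles are IDR peaks, open circles other pooled peaks, and colours mark PRC1 (red), PRC2 (blue), PhoRC (purple) and trx (green). The dotted line is the lowest IDR signal, 112; x and + mark strong peaks of replicate 3 or 1 with no overlapping peak in the other, drawn at that replicate's own signal, and ph-p and Psc hold the peaks near 1000.

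Sequences are shown for the stronger of the intronic ph-p summits, for the strongest summits of ph-d and trx, for the Pc promoter, for the E(z) start, for a trx intron peak that holds a Bar-type site, and for the Sfmbt peak of replicate 3. All are on the minus strand of dm6, which is the sense strand of these genes, and are written 5′ to 3′. Capitals mark a match on either strand to any of the 6 short sites whose shares are given near the end. The ph-p window is chrX:2137284-2137384 (intron) and the ph-d window chrX:2124007-2124107 (upstream). The trx windows are chr3R:14283831-14283931 and chr3R:14278061-14278161, both intronic. The Pc window is chr3L:21318021-21318117, ending at the base before the TSS. The E(z) window is chr3L:10638067-10638096, within the 5′ UTR, and the Sfmbt window is chr2L:13176889-13176948, upstream of the TSS. Exonic bases beyond 30 are not shown.
ph-p: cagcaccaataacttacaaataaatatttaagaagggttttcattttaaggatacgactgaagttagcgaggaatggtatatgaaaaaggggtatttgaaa
ph-d: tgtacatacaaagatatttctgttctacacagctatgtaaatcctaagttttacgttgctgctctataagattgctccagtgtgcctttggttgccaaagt
trx, strongest: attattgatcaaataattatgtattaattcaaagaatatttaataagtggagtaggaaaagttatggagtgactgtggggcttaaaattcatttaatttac
trx, Bar-type site: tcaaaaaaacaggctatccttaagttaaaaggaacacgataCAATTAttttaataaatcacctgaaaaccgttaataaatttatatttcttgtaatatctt
Pc: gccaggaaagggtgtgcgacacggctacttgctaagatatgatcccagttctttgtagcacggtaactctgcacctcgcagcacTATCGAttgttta
E(z): ggctctttgtttatttcctactttcagtac
Sfmbt: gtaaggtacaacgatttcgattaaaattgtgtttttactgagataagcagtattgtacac

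The PRC1 subunit genes ph-p and ph-d, a tandem pair on the X that encodes the Polyhomeotic proteins, carried the largest group of strong peaks. The ph-p gene (X, 2126210 to 2138371, minus strand) had 5 IDR summits. Of all protein-coding genes, 1.15% had 5 or more and 2.84% had 4 or more. Its strongest peak had signal 1156 (X, 2137692 to 2138110) and lay in the 5′ UTR, 473 bp inside the most upstream TSS. That peak ranked 27 in the pool, 25 in replicate 1 and 33 in replicate 3. The next, intronic and 479 bp upstream of an internal TSS, had signal 1007 (X, 2137201 to 2137524) and ranked 39 and 40 in replicates 1 and 3. Both replicates thus placed these peaks near the top of their lists. Only 80 genes (0.573%) had a stronger pooled peak in their window than ph-p. The peaks of signal 1156 and 1007 also fell in the window of the neighbour D2hgdh, but their nearest TSS was that of ph-p.

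Another intronic peak of ph-p, 1288 bp inside a TSS, had signal 309 and differed more between the replicates, with ranks of 392 and 1133 in replicates 1 and 3. The remaining IDR peaks of ph-p lay upstream, at 2326 and 3552 bp, with signal 157 and 141. Both were nearer to the TSS of the neighbour D2hgdh, at 792 and 434 bp, and the farther one lay inside the D2hgdh gene. Thus 3 of the 5 summits in this window had a ph-p TSS as the nearest.

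The ph-d gene (X, 2115727 to 2123286, minus strand) had 3 IDR summits, all within 1 kb upstream of its TSS and none in its body. The strongest had signal 455 (X, 2123924 to 2124203), 771 bp upstream. A second, with signal 276, had its summit 974 bp upstream in an overlapping peak. Both matched the same replicate peaks, of rank 168 in replicate 1 and 408 in replicate 3. Only the strongest overlapping replicate peak was taken, so whether the replicates also held a weaker peak there is not given. The remaining IDR peak, 57 bp upstream of the TSS, had signal 135 and ranks of 4371 and 2074.

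The pair arose by duplication and parts of the peaks are similar in sequence. A stretch of 141 bp of the strongest ph-p peak aligned to the ph-d peak of signal 276 with 84.4% identity. The peak at the ph-d TSS aligned over 113 bp, with 94.7% identity, to X 2136836 to 2136948 at an internal ph-p TSS. The pooled list had no summit in that ph-p stretch, and replicate 3 alone had a weak one there, of rank 29569. In all, 4 of the 18 peak intervals had such a copy in the ph loci and 3 had one elsewhere in the genome (at least 50 bp and 80% identity). The ph-d peak of signal 276 is in both counts. No source used here says how the authors placed reads that match both copies, so the split of signal between ph-p and ph-d at these stretches is uncertain.

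Psc and Su(z)2 encode related RING finger proteins, Psc being the PRC1 subunit that partners the ubiquitin ligase. They lie near each other on 2R, with 15506 bp between them, and point away from each other. The protein-coding gene CG33798 and the non-coding gene lncRNA:CR44339 lie in that interval. The interval held 2 IDR summits. The stronger had signal 997 (2R, 12985032 to 12985379), 4205 bp upstream of Psc and 168 bp from the start of the non-coding gene lncRNA:CR44339. It ranked 41 in the pool, 41 in replicate 1 and 42 in replicate 3. No other protein-coding gene had its TSS nearer, and 118 genes (0.845%) had a stronger pooled peak in their window than Psc. The other, with signal 229 (2R, 12991584 to 12991836), lay 4808 bp upstream of Su(z)2 and 2204 bp from the TSS of CG33798. Its replicate ranks were 646 and 1536.

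At the promoters themselves the pair differed. Su(z)2 had an IDR summit in its 5′ UTR, 56 bp from the TSS, with signal 166 and replicate ranks of 2008 and 2251. Psc had no IDR summit within 1 kb of a TSS. There the replicates disagreed on position: replicate 1 had a peak 103 bp inside a TSS (signal 57.2, rank 4017), and replicate 3 one 18 bp inside the other TSS (signal 85.2, rank 2579). Their summits were 421 bp apart and the intervals did not overlap, although each ranked within the 4277 strongest of its list. The strongest of the 3 pooled peaks there, of signal 95.4 and rank 5446, fell below the IDR set.

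Pc, which encodes the chromodomain subunit of PRC1 that binds methylated histone H3, had the weakest IDR peaks of the PRC1 genes. Its promoter peak (3L, 21317875 to 21318258) lay 47 bp upstream of the TSS with signal 130.3, and ranked 3351 in replicate 1 and 4298 in replicate 3. The other IDR summit, 3997 bp upstream, had signal 115, lay inside Rab26 and was 364 bp from the Rab26 TSS. It was the IDR peak of lowest signal among the 18, close to the limit of 112. The strongest peaks just outside the IDR set were at ph-d (signal 105) and ph-p (signal 104).

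Of the PRC2 genes, 1 of 2 had an IDR summit. E(z), the methyltransferase gene, had a single pooled peak in its window, and it was strong: signal 604 (3L, 10637841 to 10638207), 48 bp inside the TSS, rank 130 in the pool, 121 in replicate 1 and 164 in replicate 3. Only 379 genes (2.71%) had a stronger pooled peak than E(z). This summit also fell in the windows of CG14154, CG18628 and Cnep1r2, but its nearest TSS was that of E(z). The gene esc, which encodes a WD40 partner that E(z) needs for activity, had a promoter peak of signal 87.7 at 34 bp upstream of the TSS, below the IDR set and inside the body of the neighbour Pde1c. Its replicate ranks were 8222 and 6621, so neither replicate placed it among its strongest 4277. The nearest IDR summit to an esc TSS was 12.8 kb away.

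Neither PhoRC gene had an IDR summit. The gene pho, which encodes the DNA-binding subunit of PhoRC, lies on chromosome 4, where 48.8% of the 80 protein-coding genes had an IDR summit by the same rule. Its strongest peak had signal 70.0, 232 bp upstream of the TSS, with ranks of 11954 and 6076 in replicates 1 and 3. Its nearest IDR summit was 17.8 kb away.

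Sfmbt, which encodes the methyl-lysine-binding partner of Pho, had no pooled summit anywhere in its window, as did 23.0% of protein-coding genes. Replicate 1 had none there either. Replicate 3 had a single peak 113 bp upstream of the TSS (2L, 13176716 to 13177079), with signal 166 and rank 706 of 30000. Distances from this peak to the TSSs of other genes are not given here. The nearest replicate 1 summit was 11263 bp away. Of the 4277 strongest peaks of replicate 3, 140 (3.27%) overlapped none of replicate 1, and the Sfmbt peak was number 4 of these by signal. Such a peak being missing from the pool was common: 68 of the 140 overlapped no pooled peak.

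The trithorax gene trx encodes a histone H3 lysine 4 methyltransferase and had the most pooled summits of the 10 genes, 22, of which 4 were IDR peaks. Its window was also the longest, 28.5 kb, and 1.84% of all genes had 20 or more pooled summits. The strongest IDR peak was intronic, 3022 bp inside the only TSS, with signal 454 (3R, 14283730 to 14284036) and ranks of 184 and 404. Another intronic peak, 1651 bp inside, had signal 148 and ranks of 2205 and 3351. The intronic peak at 8792 bp, shown above with its Bar-type site, had signal 129.7 and differed most between the replicates, with ranks of 2083 and 7442. The fourth, of signal 124, lay 2118 bp upstream and 50 bp from the TSS of the neighbour red.

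No IDR summit lay within 1 kb of the trx TSS. The strongest pooled peak there, 105 bp inside, had signal 93.6 and ranks of 3748 and 13777. It was thus among the 4277 strongest peaks of replicate 1 and far below them in replicate 3. The 11 remaining pooled summits in the trx body had signals between 26.9 and 57.4.

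**Figure D2:**
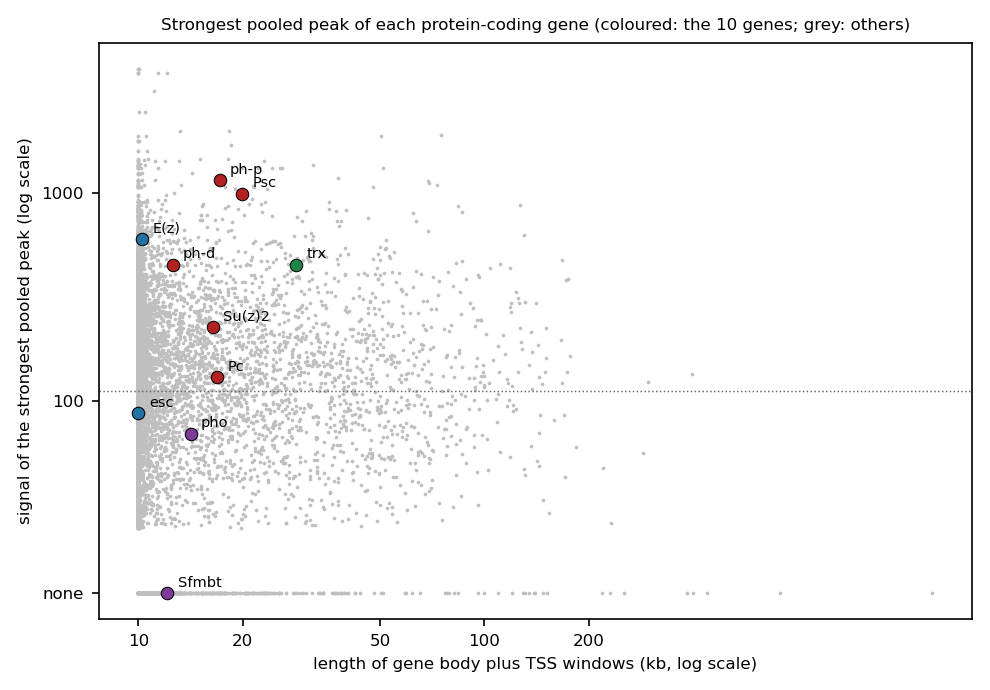
Signal of the strongest pooled peak in the window of each protein-coding gene (log scale) against window length in kb (log scale); coloured points are the 10 genes (PRC1 red, PRC2 blue, PhoRC purple, trx green), grey points all others, and the dotted line is the lowest IDR signal. The points for ph-p (1156) and Psc (997) stand highest of the 10, and Sfmbt is among the genes with no pooled summit.

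All 18 IDR peaks overlapped a peak in both replicate lists, against 98.8% of all IDR peaks. That match is largely set by the choice of IDR peaks. Their replicate ranks had a Spearman's rho of 0.86 over the 18 peaks, a description only, since the peaks share libraries and a control alignment and a pair of them shares replicate peaks. Ranks differed by 3-fold or more for 1 of the 18 (5.56%), the distal trx intron peak with a ratio of 3.57, against 11.7% of matched IDR peaks. Of the 18, 14 overlapped one of the 4277 strongest peaks of each replicate (77.8%, interval 52.4 to 93.6), against 71.3% of all IDR peaks. The median gap between the pooled and replicate summits was 6.00 bp for replicate 1 and 14 bp for replicate 3.

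**Figure D3:**
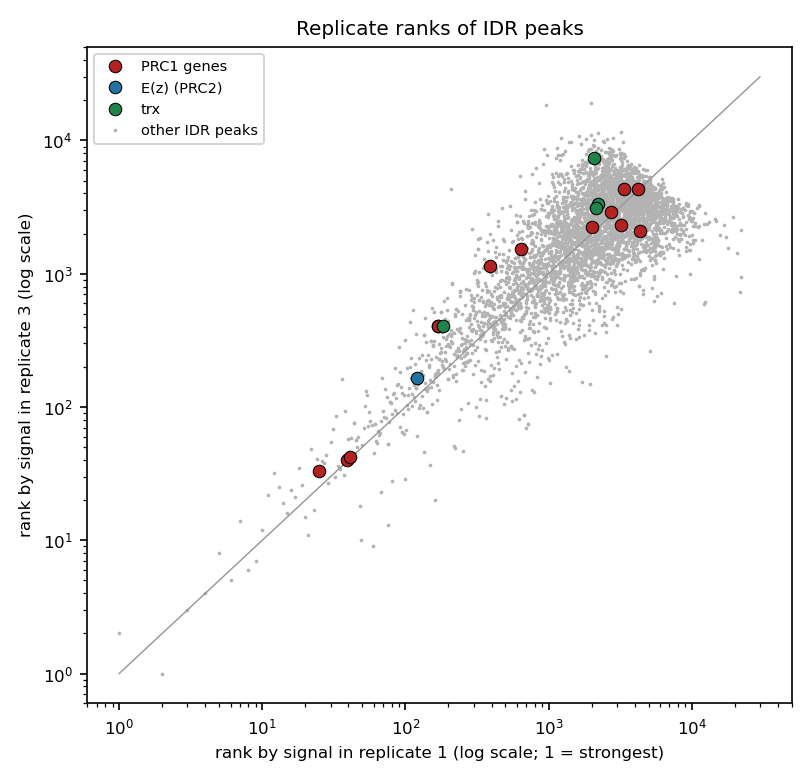
Rank by signal in replicate 3 against rank in replicate 1 (both log scale, 1 is strongest) for IDR peaks matched in both lists; large points are the peaks at PRC1 genes (red), E(z) (blue) and trx (green), grey points all other matched IDR peaks, and the line marks equal rank. The peaks of ph-p and Psc with ranks between 25 and 42 lie near the line, and the trx peak at 2083 and 7442 lies farthest from it among the 18.

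Peaks found in a single replicate were mostly weak. In the windows of the 10 genes, 7 of 55 replicate 1 summits (12.7%, interval 5.27 to 24.5) overlapped no replicate 3 peak, against 32.0% of the whole list. For replicate 3, 19 of 66 (28.8%, interval 18.3 to 41.3) overlapped no replicate 1 peak, against 33.3%. Of the summits counted, trx alone held 18 in replicate 1 and 20 in replicate 3. Summits in the same window are not independent, so these intervals are likely too narrow, and neither difference was tested. Among these unmatched peaks, 3 ranked within the 4277 strongest of their list: the Sfmbt peak and the unmatched pair at the Psc promoter. They were 1 of the 7 in replicate 1 (14.3%, interval 0.361 to 57.9), against 0.760% of all unmatched peaks of that list. In replicate 3 they were 2 of the 19 (10.5%, interval 1.30 to 33.1), against 1.40%. Counted by gene, 1 of the 10 genes had such a strong peak of replicate 1 alone, against 1.25% of protein-coding genes, and 2 of the 10 had one of replicate 3 alone, against 2.73%. The shares at the 10 genes were higher in each case, on counts of 1 or 2 that were not tested. The others ranked between 6879 and 29569.

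Each stretch of 50 bp on either side of the 18 summits was searched, on both strands, for 6 short sites. The Bar-type site TAATTG lay at 1 summit (5.56%), in the trx intron, against 8.65% of all IDR summits and 8.73% of the 24843 low-ranked pooled peaks, those with no IDR overlap. The other Bar-type site, TAAACG, was at 1 (5.56%), the strongest ph-p peak, against 5.49% and 4.61%. TATCGA, part of the site of the promoter factors DREF and BEAF-32, was at 1 (5.56%), the Pc promoter, against 12.3% and 5.18%. GGTCAC, found in M1BP sites of promoters, was at 0 of 18, against 4.63% and 2.75%. GCCAT, the core of the Pho site, was at 3 (16.7%), at trx and upstream of Su(z)2, against 17.6% and 19.6%. GAGAG, bound by GAGA factor, was at 2 (11.1%), both at Su(z)2, against 13.0% and 13.6%. These shares rest on 0 to 3 summits each and were not tested. Within 100 bp, GAGAG and TAATTG were at larger shares of the 18 than of all IDR summits, at 44.4% against 25.3% and at 22.2% against 16.6%. The strongest summits of ph-d, Psc, E(z) and trx held none of the 6 sites. Median GC content was 34.2% in the 18 windows, against 39.6% over all IDR peaks and 42.6% over the low-ranked pooled peaks. With 100 bp on each side the medians lay closer together, at 37.3%, 38.8% and 41.8%. The difference was not tested.

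**Figure D4:**
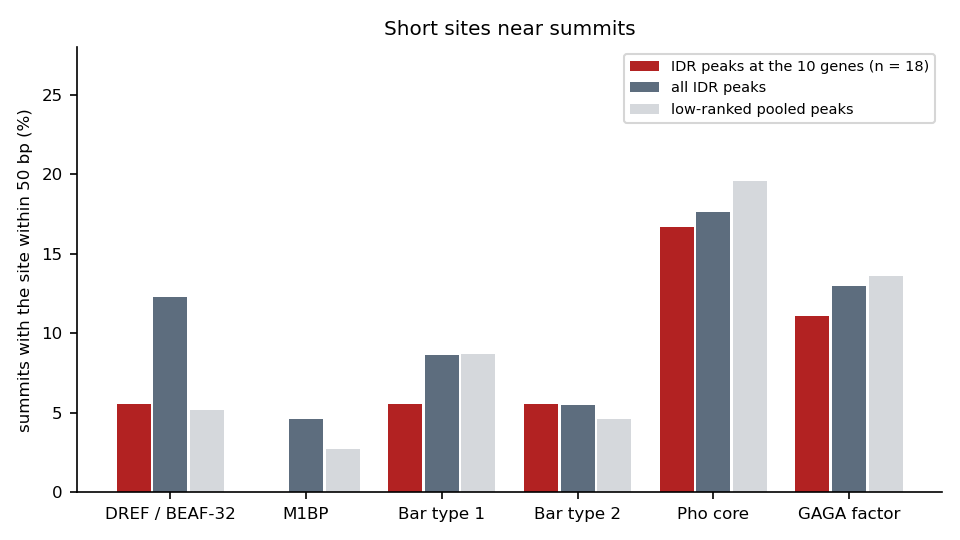
Share of summits with each short site within 50 bp, in percent, for the 18 IDR peaks at the 10 genes (red), all 4277 IDR peaks (dark grey) and the 24843 low-ranked pooled peaks (light grey). Bar types 1 and 2 are TAATTG and TAAACG; a single peak is 5.56% of the red bars, and no red bar stands for more than 3 peaks.

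Other genes of the same pathways were taken from a list of 30, which was drawn up with earlier results of these data known. Of these, 19 had an IDR summit in the body or within 5 kb (63.3%, interval 43.9 to 80.1), against 44.7% of all genes, and 16 had one within 1 kb of a TSS (53.3%, interval 34.3 to 71.7), against 26.9%. All 5 genes of DNA-binding recruiters (Spps, cg, Dsp1, psq and Trl) had a summit within 1 kb. So did 3 of 5 PRC2 genes, 4 of 12 trithorax genes, 1 of 3 PRC1 genes, 1 of 2 genes of the H2A deubiquitinase, 1 of 2 others, and phol, the paralogue of pho. The strongest such peaks were at Dsp1 (signal 448), an HMG-box protein gene, and Trl (287), the GAGA factor gene. Next came Mnn1 (243), the menin gene, Rbbp5 (237), a subunit gene of H3 lysine 4 methyltransferases, kis (199), a chromatin remodeller gene, and Su(z)12 (198), a PRC2 subunit gene. The peaks of l(3)mbt (186) and Spps (185) had the TSS of CG5934 and CG13609 nearest, each 8 bp away. The peaks of Dsp1 and Rbbp5 were likewise nearer to CG9921 and eRF1, and the Trl peak was equally near to CG42507. Some of the counted peaks not named here also had the TSS of another gene nearest.

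No pooled summit lay in the windows of 6 of the 30, Sce, ash1, Set1, trr, Lpt and Cfp1 (20%, interval 7.71 to 38.6), against 23.0% of all genes. Sce encodes the ubiquitin ligase of PRC1, and ash1, Set1 and trr encode histone methyltransferases, of which Set1 has Cfp1 and trr has Lpt as a partner. Replicate 3 alone had 1 summit at Set1 and 2 at Lpt. The strongest peak of the pooled list, of signal 3978, had its summit 153 bp beyond the 3′ end of ash1 and 8.13 kb from the ash1 TSS, so it did not count for ash1.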

How the data were processed

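ChIP-seq peak lists from 2 replicates of B-H2-GFP embryos were used, with chromatin sheared to 200 to 800 bp per the labels. The authors deposited 4 lists on build dm6: 1 per replicate, 1 from pooled alignments, and the optimal IDR set derived from these, per the file descriptions. All used the same control alignment. No source used here names the peak caller or the IDR threshold. Each deposited peak carries a signal value, used for ranks, and a −log10 q-value, deposited by the authors and not used for ranks because its highest value is shared by the whole IDR set. Depth is unknown.

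Genes and TSSs came from Ensembl release 115 (BDGP 6.54), and sequence from the dm6-equivalent RefSeq assembly. Its bases gave ATG at 99.5% of annotated starts, and 0 peaks ran past an arm's end. Summits are 1-based (list start plus offset). Replicate matches required 1 bp of overlap, with the strongest overlapping peak taken. Intervals are Clopper-Pearson. No test over the 10 genes was run, since there is 1 group. Members and gene lists were chosen with earlier results of these data known. The named-gene rule covers all 10 genes, the 8 strongest promoter peaks of the wider list, its genes with no pooled summit, and strong peaks of 1 replicate. The bounds of the window class, 12 and 30 kb, were set after values were seen. In the wider list, calypso was matched as caly through a synonym. Tools were Python 3.11.15, numpy 2.4.6, scipy 1.17.1, matplotlib 3.10.9 and BLAST 2.17.0. Summit assignment was tested on simulated data.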

Additional observations from a re-analysis of the deposited data

How the results depend on the processing

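The count of 7 genes with an IDR summit (44.7% of all genes) stayed within 1.5 times under every alternative but the gene body alone, which gave 4 genes, against 11.5% of all genes, with 8 summits in place of 18. With 2 kb in place of 5 kb it was 6, against 32.6% of all genes, since Psc had none. With the stronger 2138 IDR peaks, 9 summits remained and 3 genes (ph-p, ph-d and E(z)) had one within 1 kb, in place of 5, while the share of all genes was 16.4%, in place of 26.9%. With the 4277 strongest peaks of a single replicate, the gene count was 7 either way, against 45.7% of all genes without replicate 1 and 44.7% without replicate 3. The summits ranged from 17 to 20 and the wider list from 18 to 19. The genes with a summit within 1 kb numbered 6 without replicate 1, against 27.5% of all genes, and 7 without replicate 3, against 26.6%. Without replicate 1, Sfmbt gained a summit and Pc had none. Psc gained one within 1 kb under either replicate alone, and trx without replicate 3. With windows of 100 bp on each side, 8 summits held GAGAG, in place of 2. That put GAGAG at 44.4%, against 25.3% of all IDR summits, where it had been 11.1% against 13.0%. TAATTG likewise went to the other side, with 4 summits in place of 1, or 22.2% against 16.6% where it had been 5.56% against 8.65%. TATCGA was at 2 (11.1% against 20.4%) and TAAACG at 3 (16.7% against 9.91%), in place of 1 each. No site comparison was tested. The wider windows contain the narrower ones. The 18 peaks matched in both replicates became 16 at 50% reciprocal overlap. No paired analysis was possible because there is 1 group. Peak lists without read counts give no depth, and shares over 10 genes or 18 summits have wide intervals.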
